A study of Rattus norvegicus with 6 samples.

Results

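10 named genes of the smooth muscle contractile apparatus and its control were followed in cultured brain endothelium treated with homocysteine (Hcy). The genes are Cnn1, Tagln, Acta2, Actg2, Myl9, Myh11, Tpm1, Tpm2, Cald1 and their transcription factor gene Srf. The members were taken by symbol from the 33566 genes of the deposited count table, and all 10 were found. They were picked from earlier results of these data, because Cnn1 was lower with Hcy and Tagln was abundant. Since the contrast of Hcy with vehicle (Veh) chose the members, its values describe them and test nothing, no p is given for a member, and counts of members past a threshold only describe the set.

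The data comprised 6 RNA-seq libraries of primary rat brain microvascular endothelial cells (rBMECs), the cells that line brain capillaries and form the blood–brain barrier. The cells came from SD rats aged 18 to 22 days, from the cerebral cortex by the labels and the forebrain by the study's methods, were purified in culture and were treated after 1 passage. In the Hcy group, 3 libraries came from cells given Hcy, a sulfur amino acid formed from methionine, for 24 h. Their labels give a dose of 100 μM, whereas the treatment protocol also names a solution of 50 μM. In the Veh group, 3 libraries came from cells given ddH2O, the solvent of Hcy. Both groups were grown in the same medium with endothelial growth supplements and carried no genetic change in the labels. The sources used here do not say how many rats gave one isolation, nor whether libraries of the same number share one. The libraries, made from poly(A) RNA, held 14024997 to 16764584 counts, and the members took 0.347% to 0.359% of the counts in Veh and 0.258% to 0.261% in Hcy.

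The genes encode parts of one machine. Actin filaments of smooth muscle are built from Acta2 and Actg2, myosin filaments from the heavy chain Myh11, and the regulatory light chain Myl9 switches myosin on when it is phosphorylated. Tropomyosins (Tpm1, Tpm2), caldesmon (Cald1), calponin 1 (Cnn1) and transgelin (Tagln) bind along the actin filament and set its stability and its access to myosin. Serum response factor (Srf) binds a DNA element called the CArG box in many of these genes, with myocardin or myocardin-related factors as partners. Several of the genes are also used outside muscle, in stress fibres of cultured cells, whereas Myh11 and myocardin (Myocd) are known as more specific to smooth muscle.

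All 10 members had a lower fitted level in Hcy than in Veh, with log2 fold changes between -1.39 and -0.02 and a median of -0.45. Over all 14603 genes tested the median was -0.02, with 6854 genes higher and 7749 lower. Cnn1 and Tpm2 were called lower, which required an adjusted p (Benjamini-Hochberg) no higher than 0.05 by edgeR's quasi-likelihood test and a log2 fold change of size 1 or more. These are 2 of 10 members, beside 0.233% of all genes tested called lower and 0.486% called either way. By the adjusted p alone, 5 of 10 members were past the threshold (Cnn1, Tpm2, Tagln, Acta2 and Myl9), beside 1.01% of all genes lower and 2.34% either way. In 7 of 10 members every Hcy library lay below every Veh library, beside 9.27% of all genes tested, and 20.1% of all genes had groups that did not overlap in either direction. The groups overlapped for Srf, Actg2 and Myh11. Because the same contrast picked the set, nothing is read from these counts.

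**Figure D1:**
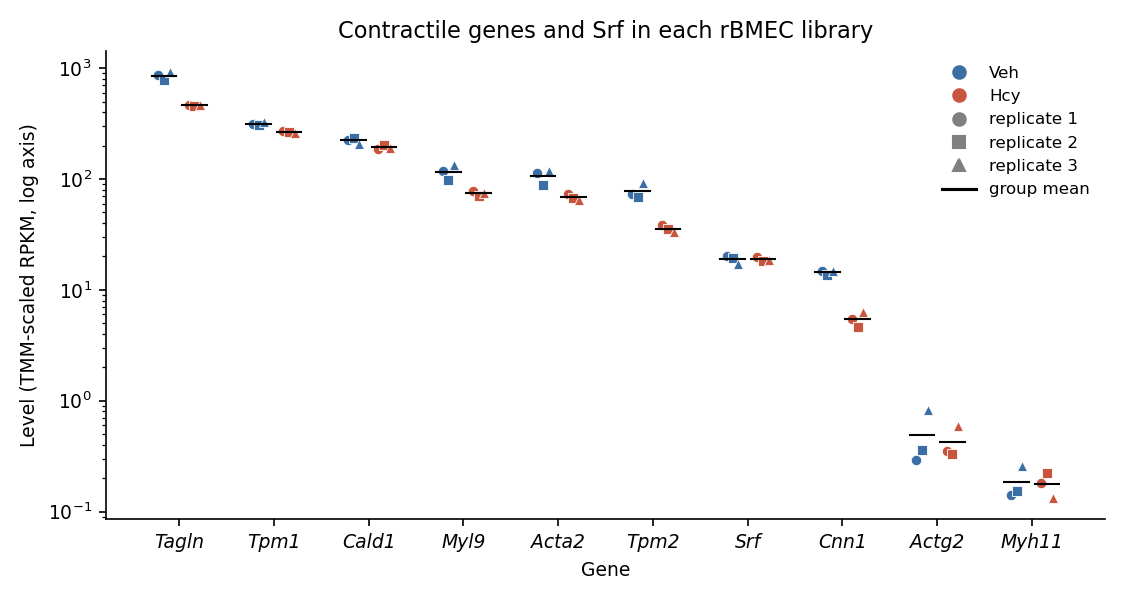
Level of each of the 10 genes in each library, as RPKM (CPM per kilobase of gene length, TMM-scaled, log axis), with blue for Veh, red for Hcy, one marker shape per replicate number and a black line at the group mean. Tagln is the highest in both groups and Myh11 the lowest, and the Hcy points of Tagln, Tpm1, Cald1, Myl9, Acta2, Tpm2 and Cnn1 all lie under their Veh points.

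Per gene length, the members spanned more than 3 orders of magnitude, and their order was the same in Veh and Hcy. In Veh the mean RPKM was 853.7 for Tagln, 316.8 for Tpm1, 223.1 for Cald1, 116.3 for Myl9, 107.3 for Acta2, 78.2 for Tpm2, 19.0 for Srf, 14.35 for Cnn1, 0.493 for Actg2 and 0.184 for Myh11. Tagln stood at the 99.1th percentile of mean RPKM over all genes tested, Tpm1 at the 98.0th, Acta2 at the 92.9th, Cnn1 at the 59.55th and Actg2 at the 15.5th, with Myh11 below it. The libraries of Myl9 and Acta2, neighbours in this order, overlapped in both groups. Those of Acta2 and Tpm2 overlapped in Veh, where the lowest Acta2 value was 88.4 and the highest Tpm2 value 91.97, but not in Hcy, where they were 65.2 and 38.3. All other neighbours were separate in both groups.

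The promoter sequences of the members are shown first, for the CArG box through which SRF acts. RefSeq windows of 250 bases before to 50 after the annotated start (assembly GRCr8) were found for 7 of 10 members, in 8 windows. The CArG box was searched as CC, then A or T at 6 positions, then GG, a pattern that is its own reverse complement, and it was present in 548 of all 33469 windows, or 1.64%. A form with exactly 1 base off, added after the first matches were seen, was present in 6744 windows, or 20.1%. Among the members, only the Srf window held the exact box, at -81 to -72 and at -61 to -52 from the start, with a form 1 base off at -38 to -29. The Acta2 window held forms 1 base off at -134 to -125 and at -84 to -75, and the Cnn1 window held none of either. These 3 are printed below, 5′ to 3′ on the gene's strand and up to the start site, because Srf itself barely differed between groups while Acta2 and Cnn1 were lower in every Hcy library. Capitals mark the CArG box and the forms with 1 base off.
Srf, chr9:21923826-21924075, plus strand: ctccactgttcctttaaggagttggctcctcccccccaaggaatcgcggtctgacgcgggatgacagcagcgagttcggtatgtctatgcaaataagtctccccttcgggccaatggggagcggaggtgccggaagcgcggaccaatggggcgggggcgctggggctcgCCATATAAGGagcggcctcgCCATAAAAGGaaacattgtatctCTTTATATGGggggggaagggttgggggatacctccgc
Acta2, chr1:241172504-241172753, minus strand: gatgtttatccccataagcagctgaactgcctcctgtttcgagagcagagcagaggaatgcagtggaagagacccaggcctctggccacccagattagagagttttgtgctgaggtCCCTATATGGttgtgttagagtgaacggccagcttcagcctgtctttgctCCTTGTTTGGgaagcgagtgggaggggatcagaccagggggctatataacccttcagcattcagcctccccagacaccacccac
Cnn1, chr8:28908187-28908436, plus strand: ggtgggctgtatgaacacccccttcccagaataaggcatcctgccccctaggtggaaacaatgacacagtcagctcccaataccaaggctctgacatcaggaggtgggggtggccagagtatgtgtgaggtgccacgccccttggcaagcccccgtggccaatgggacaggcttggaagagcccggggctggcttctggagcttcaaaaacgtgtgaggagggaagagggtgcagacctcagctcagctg
Tpm1 held forms 1 base off at -195 to -186 and at -55 to -46, one of the windows of Cald1 held such a form at -245 to -236, and the windows of Tpm2 and Actg2 and the other one of Cald1 held none. The motif of TEAD factors, the partners of YAP and TAZ (CATTCC on either strand, with no match overlapping a CArG match), was present in 4749 of 33469 windows, or 14.2%, and in those of Acta2, Tpm1 and Cald1. Absence of these letters describes the window only.

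**Figure D2:**
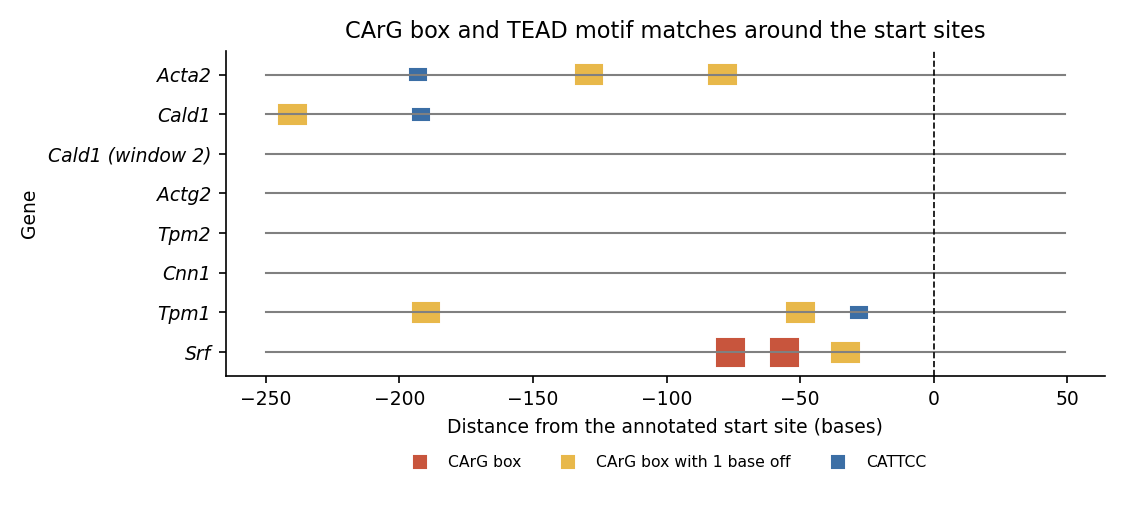
Positions of the CArG box (red), the form with 1 base off (yellow) and CATTCC on either strand (blue) in the 8 promoter windows of 7 members, against distance from the annotated start site in bases, with each line spanning the window. Only Srf holds the exact box, and the windows of Cnn1, Tpm2 and Actg2 and the second window of Cald1 are empty.

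Calponin 1, an actin-binding protein that restrains myosin's action on actin, showed the largest difference of the 10 members. Cnn1 (chromosome 8, 23113048 to 23121761, plus strand, as the table lists it) had 22.1, 20.3 and 22.2 normalized counts (CPM, counts scaled to a common library size with TMM factors) in Veh 1 to 3 and 8.19, 6.92 and 9.55 CPM in Hcy 1 to 3. The highest Hcy library was below the lowest Veh library, and the Veh libraries were close together, with a coefficient of variation of 5.08%. The means were 21.5 ± 1.09 CPM in Veh and 8.22 ± 1.32 CPM in Hcy (SD, n = 3 each), a log2 fold change of -1.39 ± 0.14 (SE), or 2.62-fold lower in Hcy. These levels rested on 318 to 372 counts per library in Veh and 103 to 160 in Hcy.

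Transgelin, a calponin relative that cross-links actin filaments, was the most abundant member. Tagln (chromosome 8, 50222896 to 50231357, minus strand) had 1078, 976 and 1158 CPM in Veh 1 to 3 and 590, 572 and 586 CPM in Hcy 1 to 3. All Hcy libraries were below all Veh libraries and lay closer together than these, with a coefficient of variation of 1.62% against 8.54%. The mean fell short of the fold required for a call, from 1071 ± 91.4 CPM in Veh to 582 ± 9.44 CPM in Hcy (SD, n = 3), a log2 fold change of -0.88 ± 0.08 (SE). The 1019 bases at the 5′ end of the Tagln interval (50230339 to 50231357) overlap Sidt2, a gene of lysosomal transport, on the same strand, so that reads there could be assigned to neither or either gene. Sidt2, named after its values were seen, was at 111 ± 8.80 CPM in Veh and 96.9 ± 4.95 CPM in Hcy (SD, n = 3), with a log2 fold change of -0.19 ± 0.08 (SE).

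Both calponin and transgelin have close relatives that are widespread outside muscle, and these relatives did not pass the test. Cnn2 and Cnn3 had log2 fold changes of -0.07 ± 0.06 (adjusted p = 0.703, edgeR) and 0.12 ± 0.07 (adjusted p = 0.515), and Tagln2 one of 0.21 ± 0.08 (adjusted p = 0.247). In CPM every Hcy library was lower for Cnn2 and higher for Cnn3 and Tagln2, beside 20.1% of all genes tested separate either way. Cnn1 was a minor calponin in both groups, at 4.12 ± 0.15% of the summed calponin RPKM in Veh and 1.58 ± 0.28% in Hcy (SD, n = 3), while Cnn3 held 51.2% and 55.9%. Tagln, by contrast, held 45.2 ± 0.51% of the summed transgelin RPKM in Veh and 27.9 ± 0.89% in Hcy, with Tagln2 as the rest and Tagln3 at 0 counts in all 6 libraries. Mean Tagln2 was 1344 CPM in Veh and 1556 CPM in Hcy, so the share reflects both genes.

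**Figure D3:**
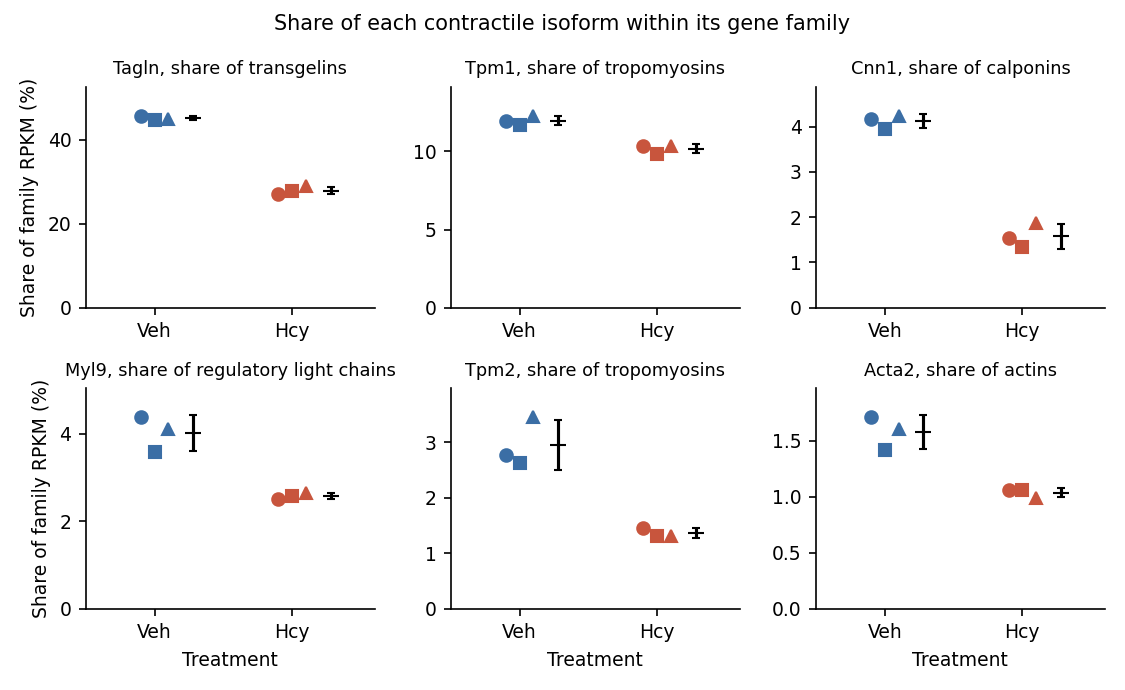
Share of 6 contractile genes in the summed RPKM of their gene family, in percent, for each library (blue Veh, red Hcy, marker shape by replicate number), with the group mean and SD beside the points and axes from 0. The 6 genes are those with relatives and more than a few counts, and in their panels every Hcy point lies below every Veh point. The shares of Actg2 and Myh11, at most 0.359% in any library, overlapped between groups and are not drawn.

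Of the smooth muscle actins, Acta2 was well expressed and Actg2 near the limit of the count data. Acta2 (chromosome 1, 252537615 to 252550394, minus strand) had 159, 123 and 166 CPM in Veh 1 to 3 and 103, 93.2 and 90.7 CPM in Hcy 1 to 3. Every Hcy library was lower than every Veh library, although Veh 2 lay well below the other two. The mean was 149 ± 23.0 CPM in Veh and 95.5 ± 6.33 CPM in Hcy (SD, n = 3), a log2 fold change of -0.64 ± 0.12 (SE). Actg2 (chromosome 4, 115215060 to 115239723, minus strand) had 7, 8 and 17 counts in Veh 1 to 3 and 7, 7 and 14 in Hcy 1 to 3. Its groups overlapped, replicate 3 was the highest in each, and a log2 fold change of -0.19 ± 0.52 (SE) was not a detectable difference at this depth. Without Veh 3 that value was 0.39.

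Acta2 was a small part of the actin RNA of these cells. It held 1.58 ± 0.15% of the summed actin RPKM in Veh and 1.04 ± 0.04% in Hcy (SD, n = 3), against 62.8% and 61.5% for the cytoplasmic beta-actin Actb and 31.3% and 32.9% for the cytoplasmic gamma-actin Actg1. Actb and Actg1 did not pass the test, with log2 fold changes of -0.06 ± 0.09 (adjusted p = 0.832, edgeR) and 0.04 ± 0.07 (adjusted p = 0.852). Reads of Actg1 may be split with LOC100361457, a near-identical copy named after its values were seen, which held 4.31% and 4.50%. Acta1, the skeletal muscle actin, had 87, 31 and 61 counts in Veh and 17, 34 and 32 in Hcy, and these groups overlapped, with -1.06 ± 0.38 as the log2 fold change (adjusted p = 0.240). The cardiac actin Actc1 had 28 counts in Hcy 2 and 0 in the other libraries.

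Of the myosin genes, Myl9 was lower with Hcy and Myh11 was nearly silent. Myl9 (chromosome 3, 152857592 to 152863960, plus strand) had 130.5, 107 and 147.5 CPM in Veh 1 to 3 and 86.0, 77.9 and 82.5 CPM in Hcy 1 to 3. The groups were separate, and Veh varied more than Hcy, with coefficients of variation of 15.7% and 4.92%. The means were 128 ± 20.2 CPM and 82.1 ± 4.04 CPM (SD, n = 3), which gave a log2 fold change of -0.65 ± 0.11 (SE). Myh11 (chromosome 10, 764421 to 859184, plus strand) had 16, 16 and 25 counts in Veh 1 to 3 and 17, 22 and 15 in Hcy 1 to 3. These overlapped, the log2 fold change was -0.04 ± 0.36 (SE), and it was 0.28 without Veh 3 and 0.14 without Hcy 3.

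The non-muscle myosin genes carried nearly all of the family's RNA. Among the regulatory light chains, Myl9 held 4.02 ± 0.41% of the summed RPKM in Veh and 2.57 ± 0.06% in Hcy (SD, n = 3), and Myl12a, its non-muscle counterpart, held 85.9% and 89.3%. Myl12a did not pass the test (log2 fold change 0.06 ± 0.09, adjusted p = 0.856, edgeR), nor did Myl12b, which was lower in every Hcy library (-0.29 ± 0.09, adjusted p = 0.158). Among the heavy chains, Myh11 held 0.241% in Veh and 0.206% in Hcy, while Myh10 held 52.0% and 50.9%. Myh9, the heavy chain of non-muscle myosin IIA, was the single gene among the relatives with an adjusted p of at most 0.05. It was named for that after its values were seen, with 244, 176 and 157 counts in Veh and 263, 375 and 426 in Hcy, or 0.93 ± 0.16 on the log2 scale (adjusted p = 0.0212, edgeR). The libraries did not overlap, but most RNA of this kind was counted on a second row, Myh9l1, described in the table by the same protein, whose log2 difference was 0.15 ± 0.14 (adjusted p = 0.714), so the split of reads between these rows is uncertain.

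The tropomyosins, coiled-coil proteins that lie along actin, differed in size of effect. Tpm2 (chromosome 5, 59016622 to 59025631, minus strand) had 109, 103 and 137 CPM in Veh 1 to 3 and 57.1, 52.9 and 49.2 CPM in Hcy 1 to 3. The groups were far apart, and Veh 3 was the highest of all libraries. The means were 116.5 ± 18.0 CPM and 53.1 ± 3.93 CPM (SD, n = 3), which gave a log2 fold change of -1.14 ± 0.12 (SE), which left 45.5% of the Veh level. Tpm1 (chromosome 8, 72814740 to 72842228, minus strand) had 982, 961 and 1018 CPM in Veh 1 to 3 and 843.5, 823 and 815 CPM in Hcy 1 to 3. Its groups were separate too, but the difference was small, at 83.8% of the Veh level and a log2 fold change of -0.26 ± 0.06 (SE).

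The widely expressed tropomyosins Tpm3 and Tpm4 had log2 fold changes of 0.01 ± 0.07 (adjusted p = 0.983, edgeR) and 0.05 ± 0.06 (adjusted p = 0.819). In the summed tropomyosin RPKM, Tpm2 held 2.95 ± 0.44% in Veh and 1.36 ± 0.09% in Hcy, Tpm1 held 11.95 ± 0.30% and 10.2 ± 0.30% (SD, n = 3), and Tpm4 held 67.1% and 70.2%. Both Tpm1 and Tpm2 also make non-muscle isoforms, which counts per gene do not separate.

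Cald1, caldesmon, links actin and myosin and also has smooth muscle and non-muscle isoforms. Cald1 (chromosome 4, 62220736 to 62291489, plus strand) had 1008, 1047 and 933 CPM in Veh 1 to 3 and 838, 898 and 850.5 CPM in Hcy 1 to 3. The groups were separate by a narrow margin, and Cald1 was one of 2 members for which Veh 3 was the lowest rather than the highest Veh library. The means were 996 ± 58.2 CPM and 862 ± 31.8 CPM (SD, n = 3), which gave a log2 fold change of -0.21 ± 0.07 (SE).

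Srf, the factor that binds the CArG box, had almost the same level in both groups. Srf (chromosome 9, 16737642 to 16747225, plus strand) had 83.5, 80.3 and 70.5 CPM in Veh 1 to 3 and 81.1, 74.8 and 75.9 CPM in Hcy 1 to 3. All Hcy values lay within the range of the Veh values. The means were 78.1 ± 6.81 CPM and 77.3 ± 3.39 CPM (SD, n = 3), which gave a log2 fold change of -0.02 ± 0.09 (SE), and the level in Hcy was 98.9% of that in Veh. RNA level says nothing of how much SRF protein was bound to DNA.

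**Figure D4:**
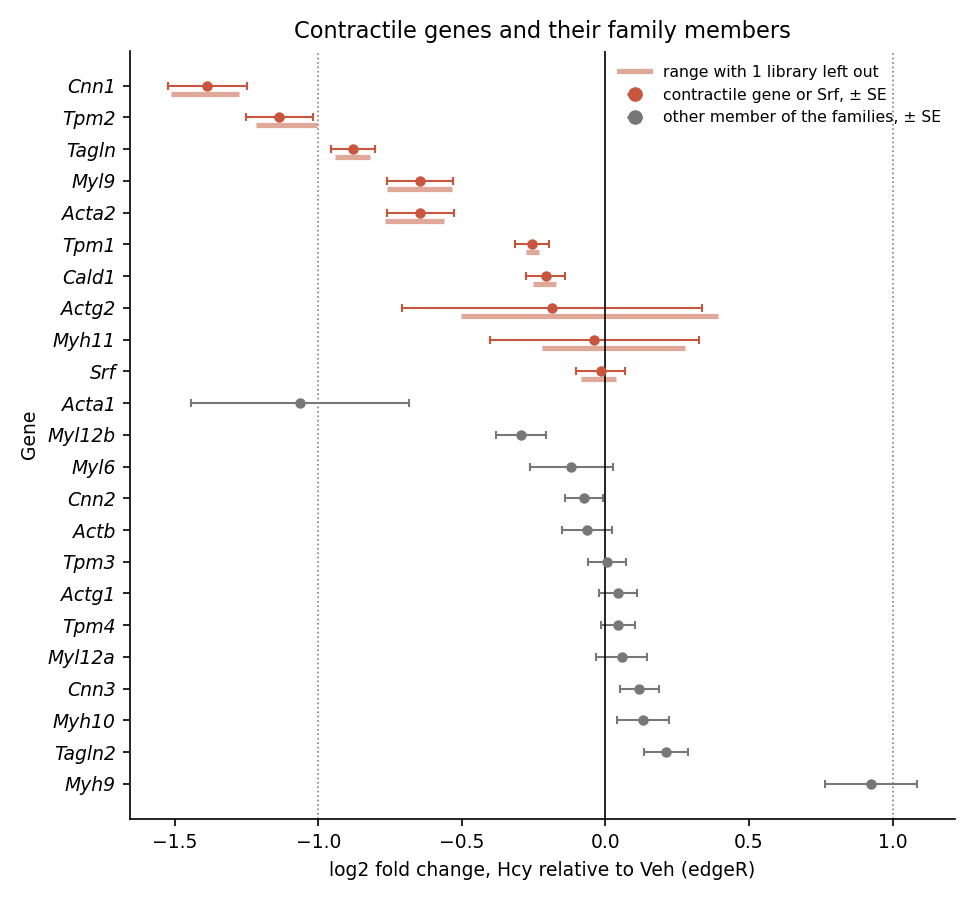
Log2 fold change of Hcy relative to Veh by edgeR, ± SE. Red points are the 10 genes, with a pale bar for the range when 1 library was left out. Grey points are the tested relatives listed for their families, without Actc1. Actc1, at 6.28 ± 2.73 from 28 counts in Hcy 2 alone, is not drawn. Dotted lines mark a log2 fold change of 1 in size. Among the 10 genes Cnn1 and Tpm2 lie past -1 and Srf lies at -0.02, and most of the relatives drawn lie near 0.

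Within the Veh group, 6 members (Cnn1, Tagln, Acta2, Myl9, Tpm1 and Tpm2) shared the same order of libraries, with Veh 2 lowest and Veh 3 highest, and for 5 of these 6 Hcy 1 was the highest Hcy library. Over all members, Veh 3 was the highest Veh library for 8 of 10 members and the lowest for Cald1 and Srf, while Veh 2 was the lowest for 6. In Hcy, library 1 was the highest for 6 members and library 2 the lowest for 5. How many of all genes tested had these orders was not counted, so the orders are not read as particular to the members. The Veh spread was widest, among the well-expressed members, for Myl9, Acta2 and Tpm2, with coefficients of variation of 15.7%, 15.4% and 15.5%, and narrowest for Tpm1, at 2.91%. With 1 library left out the log2 fold change of Cnn1 lay between -1.51 and -1.28, that of Tpm2 between -1.22 and -1.003, and that of Tagln between -0.94 and -0.82.

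The genes that surround the contractile apparatus were read from lists of other smooth muscle genes, family relatives, SRF partners, SRF targets, genes of endothelial-to-mesenchymal transition and cell type markers. Of their 108 genes tested, edgeR's quasi-likelihood test called 0, while 31 had an unadjusted p under 0.05, beside 13.4% of all genes tested, and DESeq2 also called 0. By the adjusted p alone 7 of 108 passed by edgeR, beside 2.34% of all genes tested, and 14 by DESeq2, beside 5.09% of the genes to which it gave an adjusted p. These 7 were Smtn, Myh9, Vim and Mcam, which were higher with Hcy, and Klf4, Ankrd1 and Smad7, which were lower; they are named for passing, after their values were seen. With 1 library left out, only Klf4 kept an adjusted p of at most 0.05 in every fit by edgeR. The highest adjusted p of the other 6 then lay between 0.0825 and 0.192, and each lost its pass without Hcy 2 and without Hcy 3. Adjusted p values of list genes here and below are those of edgeR.

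Of 12 other smooth muscle genes 11 were tested, and 7 were higher and 4 lower, with a median log2 fold change of 0.39, on the other side of 0 from the contractile members. Only Pgm5, Smtn, Lmod1, Mustn1 and Mylk had a mean above 3 CPM in either group. Smtn (smoothelin, a cytoskeletal protein of contractile smooth muscle) had 550, 438 and 533 counts in Veh and 690, 656 and 841 in Hcy, and in CPM each Hcy library was above each Veh library. Its log2 fold change was 0.56 ± 0.11 (adjusted p = 0.0379). Pgm5, a muscle attachment protein, was at 0.39 ± 0.11 (adjusted p = 0.141), Mustn1, a small muscle protein, at -0.26 ± 0.17 (adjusted p = 0.600), and Lmod1, which starts actin filaments in smooth muscle, at -0.48 ± 0.15 (adjusted p = 0.164). Mylk was at 0.44 ± 0.17 (adjusted p = 0.272). Only Smtn passed, so the direction of the other named genes is not established by the test.

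Of 15 SRF cofactors and regulators 12 were tested, with 3 higher and 9 lower and a median log2 fold change of -0.09. Myocd, the coactivator that marks smooth muscle, had 1, 1 and 0 counts in Veh and 0 in each Hcy library. Klf4, a zinc finger factor known both as a repressor of smooth muscle genes and as a flow-responsive gene of endothelium, had 649, 581 and 524 counts in Veh and 230, 291 and 362 in Hcy. The groups were separate, and the log2 fold change was -0.95 ± 0.11 (adjusted p = 0.00415). The most abundant of the list did not pass: Wwtr1 (TAZ) at -0.15 ± 0.10 (adjusted p = 0.596), Elk3, a ternary complex factor, at -0.10 ± 0.07 (adjusted p = 0.603), and Yap1 at -0.08 ± 0.14 (adjusted p = 0.878). Mrtfb and Prkg1 were not analysed here.

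Of 21 SRF target genes outside the contractile set, all were tested, and 5 were higher and 16 lower, with a median log2 fold change of -0.11. Ankrd1, a cardiac and stretch-responsive ankyrin protein, was at 289 ± 26.7 CPM in Veh and 195 ± 7.19 CPM in Hcy (SD, n = 3), and the groups were separate, at -0.56 ± 0.08 on the log2 scale (adjusted p = 0.0114). The most abundant were not past the threshold: Ccn2 at -0.21 ± 0.07 (adjusted p = 0.224) and Ccn1 at -0.13 ± 0.08 (adjusted p = 0.594), both matricellular proteins, and Csrp1, a LIM protein of actin bundles, at -0.11 ± 0.09 (adjusted p = 0.648). Beside 1.64% of all windows, the exact CArG box was in 5 of 21 windows of this list. These belong to Egr1, Fhl1, Fhl2 and Lima1, or 4 of the 18 genes with a window. Among the relatives the box was in 4 of 19 windows, those of Acta1, Actc1, Actg1 and Cnn2 (4 of 15 genes). It was in none of the 10 other smooth muscle genes, 13 SRF cofactors, 14 endothelial-to-mesenchymal genes or 9 endothelial markers with a window.

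Of 18 endothelial-to-mesenchymal genes 8 were higher and 10 lower, with a median log2 fold change of -0.02. Vim, the mesenchymal intermediate filament protein also made by endothelium, was higher (2806 ± 253 CPM in Veh, 3713 ± 138 CPM in Hcy, SD, n = 3; 0.40 ± 0.08, adjusted p = 0.0300), and Smad7, an inhibitor of TGF-beta signalling, was lower (30.4 ± 3.16 and 19.3 ± 1.92 CPM; -0.65 ± 0.12, adjusted p = 0.0247). Fn1, the matrix protein fibronectin, did not pass, at -0.12 ± 0.10 (adjusted p = 0.706). Snai2, named after its values were seen, had the largest log2 fold change of the list, at -1.53 ± 0.37, and did not pass either (adjusted p = 0.0834). It had 31, 18 and 32 counts in Veh and 7, 11 and 9 in Hcy.

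The labelled cell type was checked against marker genes of endothelium, of the mural cells that also carry contractile genes, and of other brain cells. Of 13 endothelial markers in the table, Cdh5, the cadherin of endothelial junctions, was at 1796 ± 231 CPM in Veh and 1961 ± 104 CPM in Hcy (SD, n = 3), and Kdr, the VEGF receptor, at 390 ± 69.5 and 505 ± 23.8 CPM (log2 fold change 0.37 ± 0.12, adjusted p = 0.195). A row without a symbol that the table describes as Pecam1 (CD31), found after its values were seen, was at 869 ± 67.5 and 1102 ± 53.6 CPM. Cldn5, the tight junction claudin that marks brain endothelium, had 0 counts in all 6 libraries, which allows its row up to 0.178 to 0.215 CPM (3 counts per library, counting error only). Whether its reads were lost or counted on another row was not tested, so this 0 is a fact about the row and not about the cells. Of the 12 endothelial markers tested, 7 were higher and 5 lower with Hcy, with the groups separate for 4 in each direction, beside 20.1% of all genes tested separate either way. By edgeR's adjusted p none passed, while 7 had an unadjusted p under 0.05 (13.4% of all genes) and 4 passed by DESeq2's adjusted p (5.09% of the genes to which it gave one). Those lower in every Hcy library, named after their values were seen, were the glucose transporter Slc2a1 (-0.32 ± 0.07 on the log2 scale, adjusted p = 0.0536), Eng (-0.27 ± 0.07, adjusted p = 0.116), Tek (-0.24 ± 0.08, adjusted p = 0.224) and Mfsd2a (-0.44 ± 0.19, adjusted p = 0.346). Higher in every Hcy library were Kdr, Vwf (0.36 ± 0.09, adjusted p = 0.0932), Flt1 (0.255 ± 0.095, adjusted p = 0.267) and Tie1 (0.11 ± 0.07, adjusted p = 0.550). The summed CPM of the 13 endothelial markers was 9044 to 10560 in Veh and 10480 to 10900 in Hcy. Veh 3, the highest Veh library for most members, was the lowest here.

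Most markers of mural cells had low counts. Most pericyte markers tested were higher with Hcy, with a median log2 fold change of 0.62, but only Mcam passed by the adjusted p of edgeR. Pdgfrb, the pericyte growth factor receptor, had 23, 19 and 34 counts in Veh and 38, 54 and 30 in Hcy. Rgs5 had 4, 4 and 1 counts in Veh and 7, 9 and 5 in Hcy, and Cspg4 had 5, 3 and 3 in Veh and 16, 9 and 9 in Hcy. Des, the muscle intermediate filament protein, had 12, 6 and 4 counts in Veh and 8, 12 and 11 in Hcy. Of 11 pericyte markers 9 were tested, of which 7 were higher and 2 lower. The lower ones, named after their values were seen, were Kcnj8, with 7, 13 and 11 counts in Veh and 5, 6 and 4 in Hcy, and Anpep, with at most 5 counts in any library. The summed CPM of the pericyte markers, 1527 to 1627 in Veh and 2031 to 2157 in Hcy, was almost wholly Mcam (0.42 ± 0.06, adjusted p = 0.0118), which endothelium also makes, and without it was 3.70 to 4.98 in Veh and 5.01 to 7.52 in Hcy. The summed CPM of the 12 other smooth muscle genes was 125 to 143 in Veh and 167 to 170 in Hcy.

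Fibroblast markers were low except for Col1a1. This gene, a fibrillar collagen, was the single one of 7 tested fibroblast markers that was lower with Hcy, the other 6 being higher, with a median log2 fold change of 0.47 over the 7. Col1a1 had 1164, 876 and 1184 counts in Veh and 757, 509 and 931 in Hcy, groups that in CPM did not overlap and differed by -0.52 ± 0.19 on the log2 scale (adjusted p = 0.264). Dcn had at most 4 counts in any library, and Pdgfra had 15, 24 and 27 in Veh and 25, 13 and 33 in Hcy. The summed CPM of the 8 fibroblast markers in the table was 66.5 to 95.3 in Veh and 49.5 to 74.4 in Hcy. Most of it was Col1a1, at 69.0 ± 13.07 and 48.0 ± 12.01 CPM (SD, n = 3). In Veh 1 to 3 the sum was 84.3, 66.5 and 95.3 CPM, the order of Veh libraries shared by 6 members. Col1a1 had the same order of libraries as Cnn1 in both groups, which was seen after the values were known. In Veh, Col3a1, Thy1 and Pdgfra had other orders. How many of all genes tested share these orders was not counted, so nothing is read from the match. Gfap of astrocytes had at most 4 counts and Aif1 of microglia at most 10 in any library, and the 12 markers of other brain cells summed to 1.603 to 2.215 CPM in Veh and 1.22 to 2.51 CPM in Hcy, with 6 of them at 0 in all libraries. In bulk RNA, fewer cells of a type and less RNA per cell cannot be told apart, and the part of any minor cell type in the level of the contractile genes was not tested.

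**Figure D5:**
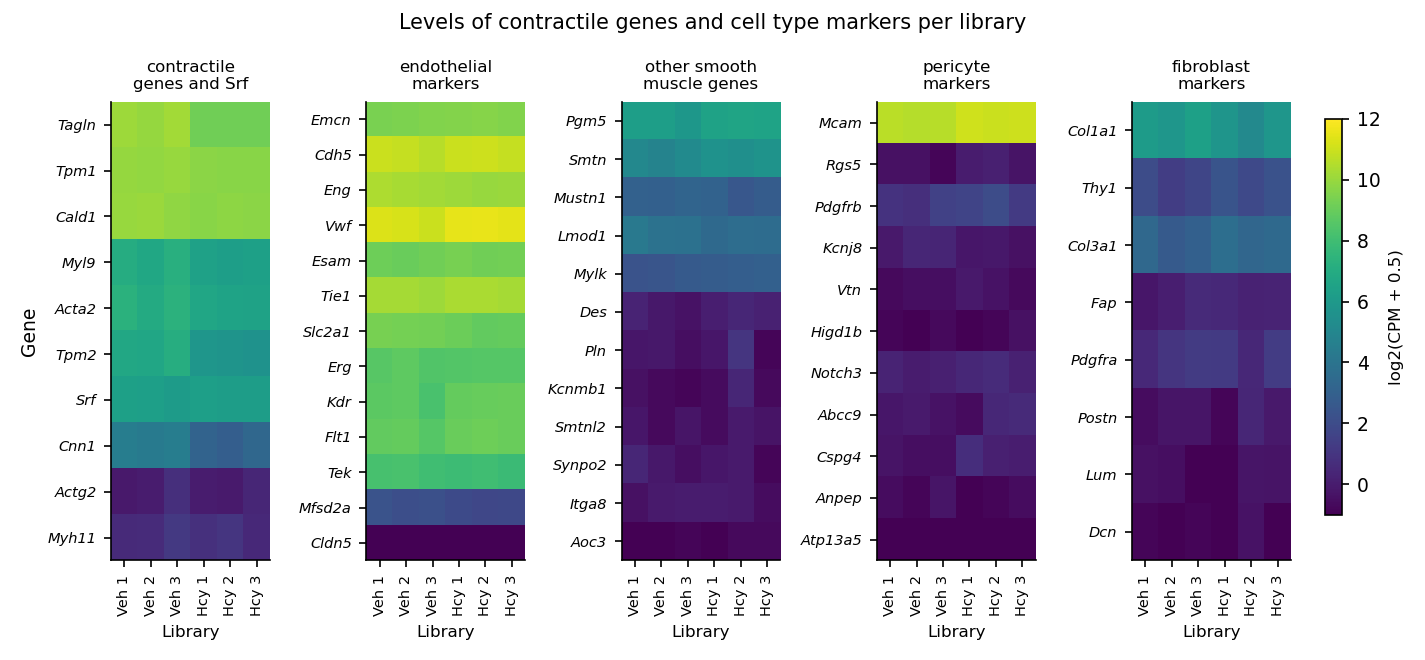
Heat maps of log2(CPM + 0.5) in each of the 6 libraries for the 10 genes, the endothelial markers, the other smooth muscle genes, the pericyte markers and the fibroblast markers, on one color scale. Endothelial markers other than Cldn5 and Mfsd2a are bright in all libraries, whereas the pericyte panel is dark apart from Mcam and the fibroblast panel is brightest for Col1a1.

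The genes whose levels followed Cnn1 and Tagln most closely were found among 8249 genes with a mean of at least 10 CPM, by Pearson's r of log2 CPM over the 6 libraries. The 5 closest to Cnn1 were Slc1a1, Uap1, Id1, Timp2 and Tnfrsf1b, with r from 0.993 to 0.997. The 5 closest to Tagln were Ehbp1l1, Nqo1, Maff, Mgat2 and Tnfrsf1b, with r from 0.994 to 0.997. Both r values span the 2 treatment groups, so a gene that is lower in all Hcy libraries scores high by that alone, and Tnfrsf1b, the type 2 TNF receptor, was in both lists. The sizes of change differed even so, from a log2 fold change of -1.25 for Timp2 to -0.16 for Mgat2.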

How the data were processed

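The 3 Hcy and 3 Veh libraries were grouped by their titles and treatment labels. Values deposited by the authors are raw read counts, without normalization, for 33566 genes with their lengths and positions. The submitters' processing notes name fastp, HISAT2 2.2.1, StringTie 2.2.3, Cufflinks, featureCounts 2.0.6, DESeq2 1.42.0 and the builds mRatBN7.2 and rn7, with no roles. The count table itself names no build. Its positions reach 282724300 on chromosome 1, past the length of that chromosome in mRatBN7.2, so printed gene positions are as listed and cannot be read in that build. Promoter windows are in GRCr8. Whether counting used strand is not given in the sources used here. A second deposited table holds the authors' own DESeq2 comparison (normalized values, log2 fold changes and p-values) and was not used.

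A gene was tested if its counts summed to 10 or more (14603 genes). Groups were compared in R 4.3.3 with edgeR 4.0.16 (TMM factors 0.977 to 1.015, quasi-likelihood test, condition as the only term, Benjamini-Hochberg adjustment over all genes tested), and a call required an adjusted p no higher than 0.05 with a log2 fold change of size 1 or more. The SE of a log2 fold change is its size divided by the square root of the F statistic. RPKM is TMM-scaled CPM divided by the deposited gene length in kilobases. The scripts were tested on simulated counts. At the depth of these libraries 3 counts equal 0.178 to 0.215 CPM. These limits cover counting error only. The p-values weigh the difference between groups against the spread between these libraries, which may not be a spread between rats. Counts of rows without a gene symbol, 0.757% to 0.842% of each library, stayed in the fit as genes.

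The members and the gene lists were chosen with earlier results of these data known. Genes named were the 10 members, from each list the called genes and otherwise the most abundant by RPKM up to 3, defining cell type markers, and the 5 genes most like Cnn1 and Tagln. No list gene was called, and genes named outside this rule, such as the other family relatives and those passing the adjusted p alone, were named after their values were seen. Some list results are not reported here. Mrtfb, Prkg1, Pecam1, Abcb1a and Col1a2 matched no symbol and were not analysed here by name. Alternatives were DESeq2 1.42.0, its size factors in edgeR, no scaling beyond library totals, no count minimum or filterByExpr, a prior count of 2, a replicate block, no fold-change threshold, unadjusted p and leaving out each library.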

Additional observations from a re-analysis of the deposited data

How the results depend on the processing

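The number of genes called, 71, was 109 with no count minimum, 341 with no fold-change threshold and 374 with an unadjusted p. With 1 library left out it lay between 39 and 112: 39 without Hcy 1 and without Hcy 2, 46 without Hcy 3, 47 without Veh 2 and 112 without Veh 3. The cause was not tested. With a replicate block it was 82. Deviations from the group means correlated at 0.077, 0.407 and 0.051 between same-numbered libraries. For Veh 1, 2 and 3 with Hcy libraries of other numbers, the mean correlations were -0.041, -0.21 and -0.019. These values do not settle whether the numbers are pairs, and the main fit did not pair them. The block changed the count of no list. In the lists, where 0 genes were called, dropping the fold-change threshold gave 1 among other smooth muscle genes, 1 among relatives, 1 among SRF cofactors, 1 among SRF targets, 2 among endothelial-to-mesenchymal genes and 1 among pericyte markers. An unadjusted p gave 1 relative (Acta1), 1 endothelial-to-mesenchymal gene (Snai2) and 1 pericyte marker (Cspg4). With 1 library left out the relatives lay between 0 and 1 (Myh9 without Veh 1 or Hcy 1) and the SRF cofactors between 0 and 1 (Klf4 without Hcy 3). Over the 13 other fits the highest adjusted p by edgeR or DESeq2 was 0.0304 for Klf4, and with 1 library left out it rose to 0.0825 for Ankrd1 and Mcam, 0.122 for Myh9, 0.130 for Smad7, 0.159 for Vim and 0.192 for Smtn. Each of these 6 lost its pass without Hcy 2 and without Hcy 3. All but Myh9 also lost it without Hcy 1, all but Ankrd1 without Veh 2, and Smtn, Smad7 and Vim without Veh 1. Actg2 and Myh11 changed sign without Veh 3, to log2 fold changes of 0.39 and 0.28, and Myh11 also without Hcy 3, to 0.14. Srf kept its sign in 10 of 13 fits and was slightly positive without Veh 1 (0.036), Veh 2 (0.0023) or Hcy 2 (0.0065). The order of the members by RPKM did not change under any scaling or with any library left out. Depth limits Actg2 and Myh11, at 7 to 25 counts per library.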
